A study of Caenorhabditis elegans with 2 samples.

Results

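Cytosolic ribosomal protein genes of Caenorhabditis elegans were examined for peaks of the transcription factor ELT-1 in embryos. The genes were taken by symbol from the Ensembl annotation of WBcel235: every protein-coding gene named rpl- or rps- with a number, which gave 47 large-subunit and 31 small-subunit genes, 78 in all of 19985 protein-coding genes. The symbol rule also took rpa-1 and rpa-2, for a total of 80, but RefSeq names their products as subunits of replication protein A, which binds single-stranded DNA, so they were kept apart and are reported by their own values. RefSeq products of 74 of the 78 named a ribosomal protein or subunit. The other 4 were rps-10 and rps-30, listed by a domain of the protein, rpl-24.2, listed as a ribosome biogenesis protein, and rpl-42, listed as a NAM-associated domain protein. All 4 were retained.

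Binding was measured by chromatin immunoprecipitation and sequencing in 1 group of 2 biological replicates. Both were hermaphrodite embryos of mixed stage from strain OP354, which carries unc-119(tm4063) on chromosome III and the integrated transgene wgIs354, a fusion of ELT-1 with a C-terminal GFP-FLAG tag. The sample descriptions say that GFP was precipitated, whereas elt-1 is entered as the antibody. The signal therefore comes from the tagged transgene product in whole embryos of 1 line, without cell type or stage being resolved, and no peak lists from a strain without the tag were analysed here.

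Ribosomal proteins are made in nearly every cell, in equal amounts for the subunits they build, and their genes are among the most strongly transcribed in growing tissue. In nematodes many of these genes carry small nucleolar RNA (snoRNA) genes in their introns, and many messages receive a spliced leader at the 5′ end. ELT-1 belongs to the GATA family of zinc finger factors and is known for directing embryonic cells to epidermal fate. Factors of this family recognise the letters GATA with preferred bases on each side.

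Sequences under strong peaks are shown first because the preferred GATA form was not found in them. The 4 windows reach 100 bp to each side of summits that are among the strongest at these genes in the thresholded list, and not every strong peak is shown. They were read from the RefSeq sequence of WBcel235, the assembly of build ce11, on the strand of the gene and 5′ to 3′, and none met an annotated exon. The window of rps-28 was chrIV:1659116-1659316 on the plus strand, and that of rpl-15 was chrIV:654808-655008 on the minus strand. The window of rpl-35 was chrIII:7854599-7854799 on the plus strand, and that of rpl-20 was chrIV:4749958-4750158 on the minus strand. Capitals mark the words GGCCTAAA and TACGGT on either strand, which are described after the peaks. GATA with an A or a T before it and an A or a G after it occurred on neither strand of these windows.
rps-28: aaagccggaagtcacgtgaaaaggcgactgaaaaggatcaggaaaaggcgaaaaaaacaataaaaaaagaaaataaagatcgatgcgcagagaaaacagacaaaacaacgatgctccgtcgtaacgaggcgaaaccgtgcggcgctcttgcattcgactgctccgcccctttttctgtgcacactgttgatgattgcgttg
rpl-15: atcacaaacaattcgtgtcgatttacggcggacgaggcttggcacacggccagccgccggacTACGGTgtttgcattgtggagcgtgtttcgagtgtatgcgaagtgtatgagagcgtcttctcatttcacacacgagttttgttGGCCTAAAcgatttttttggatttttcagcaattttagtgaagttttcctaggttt
rpl-35: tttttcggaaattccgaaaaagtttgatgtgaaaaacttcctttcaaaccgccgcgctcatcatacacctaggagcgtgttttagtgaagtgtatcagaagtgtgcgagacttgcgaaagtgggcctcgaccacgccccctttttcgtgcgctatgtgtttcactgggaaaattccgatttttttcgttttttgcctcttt
rpl-20: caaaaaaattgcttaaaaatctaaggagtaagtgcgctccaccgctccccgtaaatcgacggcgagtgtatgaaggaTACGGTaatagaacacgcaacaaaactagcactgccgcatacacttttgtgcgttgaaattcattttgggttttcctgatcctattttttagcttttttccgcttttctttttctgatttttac

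ELT-1 peaks lay at 15 of the 78 genes in the submitters' list thresholded by the irreproducible discovery rate (IDR), which is 19.2% (95% Wilson interval 12.0 to 29.3). The same rule called 3.61% of all protein-coding genes. A gene was called when a peak's summit lay between 1000 bp upstream and 200 bp downstream of any of its annotated 5′ ends. The subunits were alike in share, with 9 of 47 large-subunit genes (19.1%) and 6 of 31 small-subunit genes (19.4%). Intervals here cover counting error only, and genes and peaks are not replicates of the embryo cultures.

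The 15 genes shared 14 peaks, since rps-10 and rpl-24.1, which encode proteins of the small and the large subunit, stand head to head with 1 peak between them. The signal, the peak caller's own value with no scale stated between lists, ranged from 28.4 to 82.9 with a median of 40.8, close to the median of 39.1 for the other 623 promoter peaks of the list. The other promoter peaks reached a signal of 823, so the highest values of the list lay elsewhere. Of the 14 peaks, 13 were 350 bp wide. Outside annotated protein-coding, snoRNA, tRNA, snRNA, rRNA, miRNA and lincRNA genes lay 13 summits, and other classes of gene were not looked at.

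The strongest peak was at rpl-3, which encodes uL3, a core protein near the peptidyl transferase centre. Its signal was 82.9, with 70.2 in replicate 1 and 20.2 in replicate 2, and its summit lay 262 bp upstream of the 5′ end. The replicate 2 summit lay 349 bp upstream, 87 bp from the pooled summit and outside the IDR interval. The value of 20.2 therefore belongs to a shifted position. The rpl-3 peak was also the narrowest of the 14 intervals, at 129 bp, and ranked 133 of 1400. The peak at rps-28, which encodes eS28, had a pooled signal of 70.9, with 32.6 in replicate 1 and 39.8 in replicate 2. Within the lists of each replicate these are rank 438 and rank 71, so rps-28 stood higher in replicate 2 and rpl-3 higher in replicate 1. The summit at rps-28 lay 475 bp upstream of its 5′ end.

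Other large-subunit genes followed. At rpl-15, encoding eL15, the signal was 54.4, with 32.8 in replicate 1 and 22.3 in replicate 2. At rpl-35, encoding uL29, which lies near the exit of the peptide tunnel, it was 51.5, with 26.0 and 21.8. Both ranked in the highest 1400 peaks of each replicate. At rpl-20 the signal was 48.7, with 30.2 in replicate 1 and 17.2 in replicate 2, and at rpl-22 it was 40.3, with 28.1 and 15.5. The most distant peak was that of rpl-43, with signal 41.2 at 720 bp upstream, and its summit lay nearer to the 5′ end of Y48B6A.1. In replicate 1 it had signal 26.7 at rank 684, and in replicate 2 it had 8.21 at rank 2425. The only X-linked gene called was rpl-11.2, encoding uL5, which carries 5S rRNA into the large subunit, with a signal of 34.2, and 16.8 and 16.0 in the replicates.

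Small-subunit genes made up the rest with rpl-24.1 and rpl-27. The peak of rps-12 had signal 41.3 (25.6 in replicate 1 and 15.5 in replicate 2), 136 bp upstream. The peak of rps-20, encoding uS10, had signal 34.1 (13.8 and 16.8). The peak between rps-10 and rpl-24.1 had signal 32.8 (14.7 and 24.5) and lay 355 bp upstream of rps-10 and 255 bp upstream of rpl-24.1. These were higher in replicate 2 by rank, with rank 240 there for the shared peak against 2154 in replicate 1. The peak of rps-26, encoding eS26 at the mRNA exit channel, had signal 29.1 (12.7 and 13.0).

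Support from replicate 2 was thinnest at rps-11, which encodes uS17. Its pooled signal was 31.2 and its replicate 1 signal 26.5, but the replicate 2 peak that overlapped it had a signal of 3.07, at rank 16456 of 26001. The peak of rpl-27, encoding eL27, was the weakest of the 14, at 28.4 (12.2 in replicate 1 and 14.0 in replicate 2). Its summit lay 89 bp downstream of the 5′ end, in the coding sequence of rpl-27. It was the only summit of the 14 downstream of a start.

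**Figure D1:**
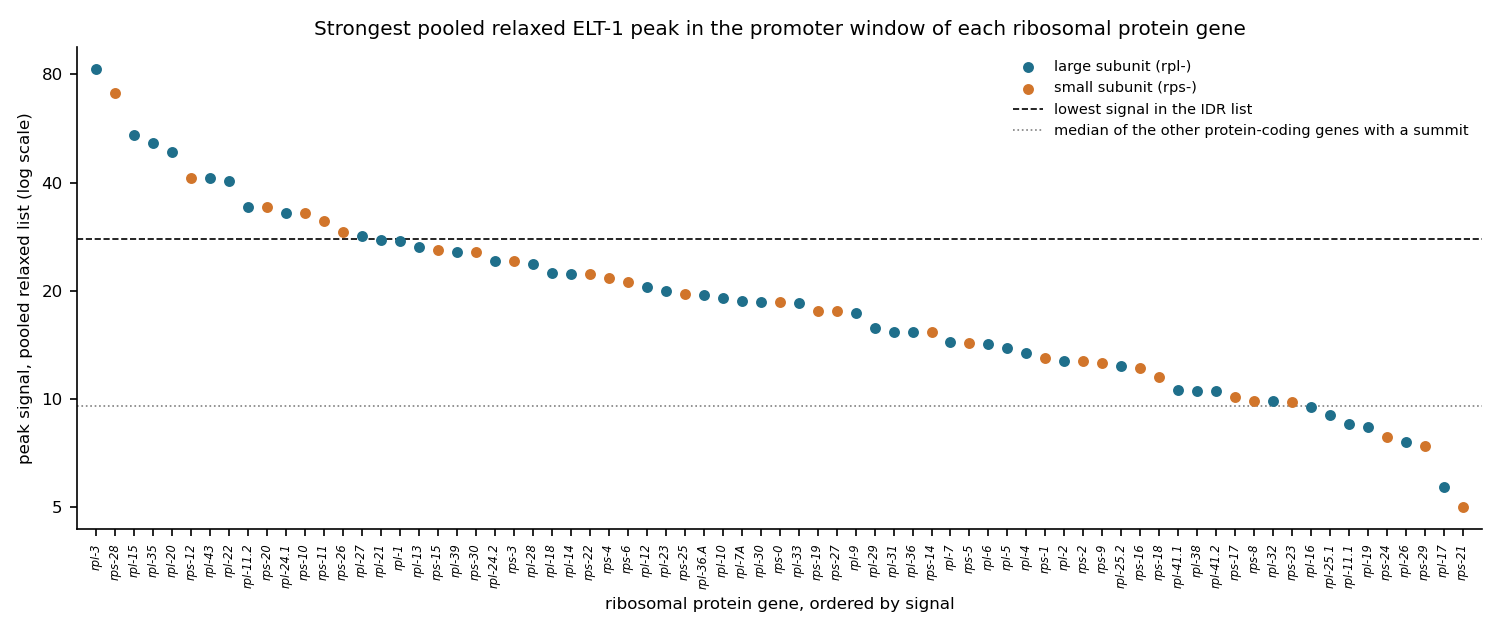
Signal of the strongest pooled relaxed peak (log scale) in the promoter window of the 73 ribosomal protein genes that had one, ordered by signal, with large-subunit genes in blue and small-subunit genes in orange. The dashed line is the lowest signal of the IDR list, 27.8, and the dotted line the median of the other protein-coding genes with a summit, 9.53. The genes fall in a continuous series through the dashed line, and 64 lie above the dotted one.

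The edge of the thresholded list fell within a continuous series of values. The lowest signal in it was 27.8227, and the highest pooled peak outside it had 27.8202. The first ribosomal protein genes outside it were rpl-21, encoding eL21, with 27.6, and rpl-1, encoding uL1, with 27.5. They were followed by rpl-13 with 26.5, rps-15 with 25.9, and rpl-39 and rps-30 with 25.6 at 1 shared peak. Then came rpl-24.2 and rps-3 with 24.2 each, rpl-28 with 23.7 and rpl-18 with 22.4. The summit at rpl-24.2 lay in an intron of C03D6.1, and the other 9 of these genes had summits outside genes of the classes looked at.

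The replicates did not rank these genes alike. At rps-15 the signal was 5.71 in replicate 1, rank 13859, and 13.0 in replicate 2, rank 933. At rpl-24.2 it was 15.3 in replicate 1, rank 1999, and 4.31 in replicate 2, rank 9618. At rpl-21 it was 20.4, rank 1201, and 8.46, rank 2264, with summits 5 bp apart. At rpl-1 the replicate summits lay 682 bp apart, so its 2 relaxed signals, 26.3 and 7.3, belong to separate positions.

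In the relaxed list of the pooled replicates, which holds 30000 peaks and background intervals, 73 of the 78 genes had a summit in the window. That is 93.6% (95% Wilson interval 85.9 to 97.2), where 42.3% of all protein-coding genes had one. The median signal of the strongest such peak was 18.6 at ribosomal protein genes and 9.53 at the other 8380 genes with a summit, and 64 of the 73 lay above that latter median. Signals ran from 5.0 at rps-21 to the 82.9 of rpl-3. The 58 genes with only a relaxed summit are counted here at a level that IDR did not retain.

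The 5 genes with no pooled relaxed summit were rpl-34, rpl-37, rpl-42, rps-7 and rps-13. Of these, rpl-34, encoding eL34, had weak relaxed summits in both replicates, with signal 3.99 in replicate 1 and 4.33 in replicate 2, at 433 bp from each other. The other 4 had none in either replicate. rps-7, rps-13 and rpl-37 encode eS7, uS15 and eL37, so the lack of a summit was found in both subunits.

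Of 6 further genes of ribosomal proteins, which the symbol rule does not take, the highest stood below the median of the 73. RACK1, a scaffold of the small subunit encoded by rack-1, had a pooled relaxed signal of 16.9. The ubiquitin fusion genes ubl-1 and ubq-2 had 7.83 and 6.91, and rla-0, encoding uL10 of the stalk, had 6.58. The stalk genes rla-1 and rla-2 had no summit in the pooled list or in either replicate. None of these 6 had an IDR summit. Of the replication protein A genes, rpa-2 had a pooled relaxed signal of 8.2 and no IDR summit, and rpa-1 had only a replicate 2 summit, with signal 7.03.

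Relaxed summits of both replicates were present at 56 of the 78 genes, 71.8% (95% Wilson interval 61.0 to 80.6), against 22.8% of all protein-coding genes. A further 14 genes had a summit in replicate 1 only, 4 in replicate 2 only and 4 in neither. At the 56 genes the strongest summits of the replicates were within 100 bp of each other at 39 (69.6%), and the median gap was 43 bp. Over all 4554 protein-coding genes with both, 39.7% were within 100 bp and the median gap was 164 bp. At 11 of the 56 the gap was over 400 bp, so both counts there rest on separate positions.

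**Figure D2:**
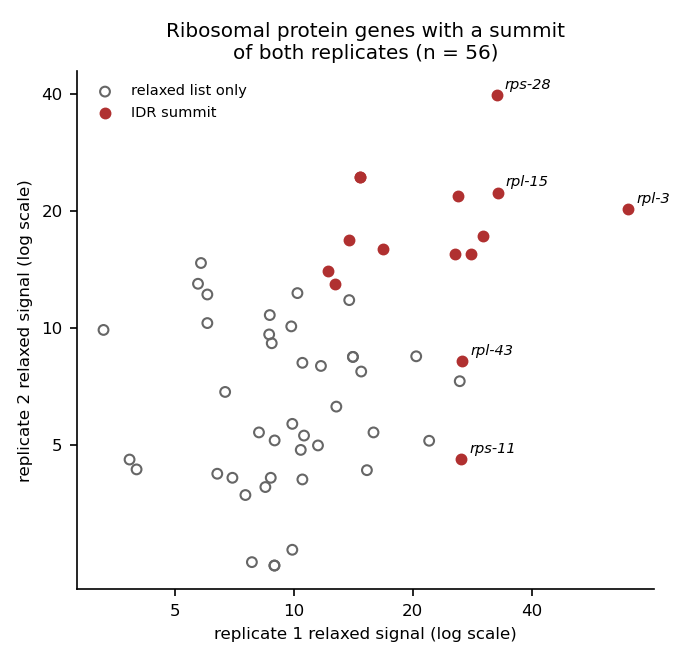
Signal of the strongest relaxed peak in replicate 1 and in replicate 2 (both log scales) for the 56 ribosomal protein genes with a summit of both, with genes of the IDR list filled. Filled points lie mostly to the upper right, and rps-11 and rpl-43 are the lowest filled points in replicate 2, at 4.61 and 8.21, where the median of the 56 is 8.18. For rps-11 the strongest replicate 2 summit in the window is 771 bp upstream, not the one that overlaps the IDR peak.

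Across the 56 genes the signals of the replicates followed each other loosely, with Spearman's rho 0.428, and across the 4554 genes rho was 0.466. These are across genes, which share the 2 libraries and are not independent replicates. Median signals at the 56 were 10.5 in replicate 1 and 8.18 in replicate 2. When each replicate was taken alone at the size of the IDR list, its 1400 peaks of highest signal marked 12 of the 78 genes in replicate 1 (15.4%) and 19 in replicate 2 (24.4%). Over all protein-coding genes these shares were 3.59% and 3.51%. Of the 14 IDR peaks, 9 overlapped one of those 1400 peaks in replicate 1 and 12 in replicate 2, and 7 did so in both. Among the other 623 IDR promoter peaks the order was the other way, with 82.3% in replicate 1 and 66.9% in replicate 2. Of those 623, 54.3% did so in both, a share close to the 7 of 14.

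Summits sat upstream at a narrow range of distances. Distances were taken to the nearest 5′ end of the same gene, also where another gene's 5′ end was nearer. The median distance of the strongest pooled relaxed summit was 274 bp upstream, with quartiles at 355 and 233 bp upstream. The other protein-coding genes had a median of 298 bp upstream, but quartiles at 597 and 104 bp upstream. Between 150 and 450 bp upstream lay 58 of the 73 summits (79.5%, 95% Wilson interval 68.8 to 87.1) and 33.5% of those of all protein-coding genes. Downstream of the 5′ end lay 1 of 73, against 13.1%. The median for the 15 genes with an IDR summit was 332 bp upstream.

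**Figure D3:**
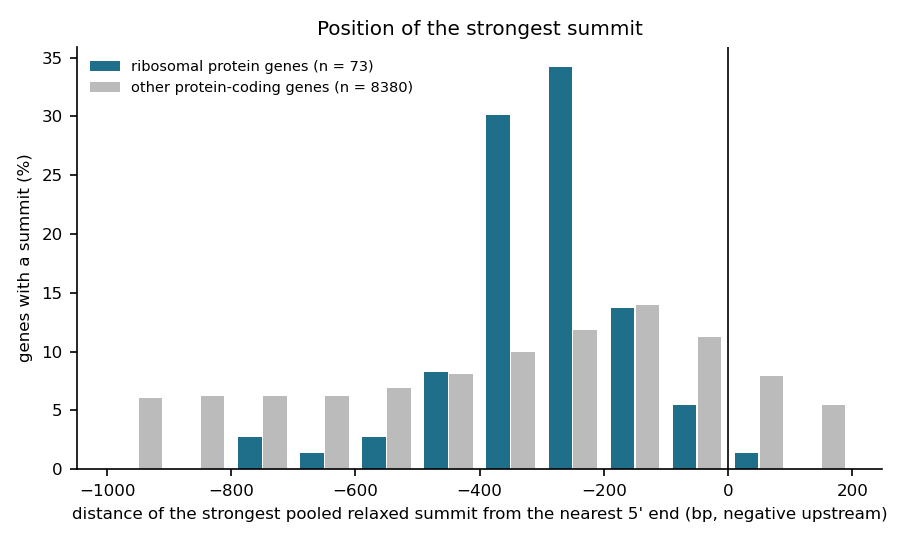
Share of genes (y axis, %) by distance of the strongest pooled relaxed summit from the nearest annotated 5′ end of the same gene (x axis, 100 bp bins, negative upstream), for 73 ribosomal protein genes and 8380 other protein-coding genes. The bins from 400 to 300 and from 300 to 200 bp upstream hold 30.1% and 34.2% of the ribosomal protein genes, and 9.99% and 11.8% of the others.

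An annotated 5′ end in this species can be a trans-splice site and not the start of transcription. The acceptor-like word TTTTCAG, on the strand of the gene, lay within the 20 bp upstream of the outermost 5′ end of 27 of 78 ribosomal protein genes (34.6%) and of 8.39% of all protein-coding genes. Distances are therefore from the annotated end.

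Many of the peaks were also in the window of another gene. At 9 of the 14 IDR peaks another gene, not of the ribosomal protein set, was called by the same summit. These were Y41D4B.4 at rps-28, K11H12.8 at rpl-15, Y17G9B.5 at rpl-20, ska-3 at rps-12, Y48B6A.1 at rpl-43, ify-1 at rpl-22, ekl-4 at rps-20, tmem-107 at rps-26, and egl-30 with C53H9.4 at rpl-27. ify-1 encodes securin, ska-3 a kinetochore component, tmem-107 a protein of the ciliary transition zone and egl-30 a Gq alpha subunit. With the pair rps-10 and rpl-24.1, 10 of 14 summits (71.4%) were in the windows of 2 or more genes, against 17.3% of the other 623 promoter peaks. The nearest 5′ end belonged to a ribosomal protein gene at 9 of the 14. For rps-26, tmem-107 was nearer, with the summit 40 bp upstream of tmem-107 and 417 bp upstream of rps-26.

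The genes often lie close to a divergent neighbour. The nearest protein-coding gene upstream stood head to head within 1000 bp at 47 of 78 ribosomal protein genes (60.3%) and at 17.5% of all protein-coding genes. The share with an IDR summit was 9 of 47 (19.1%) with such a neighbour and 6 of 31 (19.4%) without. Over all protein-coding genes the shares were 5.17% with and 3.28% without. In the pooled relaxed list 45 of 47 and 28 of 31 had a summit. Over all protein-coding genes these were 1857 of 3502 (53.0%) with such a neighbour and 6596 of 16483 without, a lower share. Besides rps-10 and rpl-24.1, 2 other pairs stood head to head over 1 pooled peak: rpl-39 with rps-30, at a signal of 25.6, and rpl-36 with rps-14, at 15.3.

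snoRNA genes lay inside 13 of the 78 genes (16.7%), against 0.961% of all protein-coding genes. Of those 13, 3 had an IDR summit (rpl-15, rps-12 and rpl-24.1), and of the 65 without a snoRNA gene 12 had one. A snoRNA gene lay within 1000 bp of the summit at 4 of the 14 IDR peaks (28.6%) and at 2.41% of the other 623. These were K11H12.13 at 547 bp from the summit of rpl-15, F54E7.10 at 216 bp from that of rps-12, D1007.20 at 389 bp from that of rps-10 and rpl-24.1, and F39B2.14 at 101 bp from that of rps-26. The first 3 are inside the ribosomal protein gene itself. No tRNA gene lay within 1000 bp of any of the 14 summits, against 4.17% of the others, and 0 of 14 allows a share of up to 21.4%.

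The GATA form, which is GATA with an A or a T before it and an A or a G after it on either strand, occurred within 100 bp of the summit in 1 of the 14 IDR peaks (7.14%, 95% Wilson interval 1.27 to 31.5), that of rps-10 and rpl-24.1. It occurred in 60.5% of the other 623 windows (56.6 to 64.3). Within 150 bp of the summit it occurred in 3 of 14 windows (21.4%) and in 68.4% of the others. In the 1400 highest relaxed peaks of replicate 2 alone it occurred in 3 of 18 windows at these genes (16.7%) and in 57.1% of the others. In the relaxed list it occurred in 15 of 56 windows at ribosomal protein genes without an IDR summit (26.8%) and in 41.7% of the 7259 windows at other genes. Those 7259 include windows at genes with an IDR summit, so the 2 sets were not filtered alike. With ribosomal protein genes that had an IDR summit included, the form occurred in 16 of 70 windows (22.9%). In the 500 bp upstream of the genes the shares were close, at 69.2% of ribosomal protein genes and 71.4% of all protein-coding genes. The shares around summits stand against those of other peaks, and the share upstream stands against that of all protein-coding genes. These comparisons are not alike, so whether the difference is confined to the summits was not tested. The median pooled signal was 17.3 at the 17 genes with a GATA form in the window of the strongest relaxed peak and 18.9 at the 56 without.

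Other words, on a list taken from common nematode promoter motifs, occurred in at most 3 of the 14 windows. CTGCGTCT occurred in 1 of 14 windows, that of rps-11, and in 9.79% of the others. GAGAGA occurred in 3 of 14 and in 35.0%, CGTCTC in 1 of 14 and 18.3%, CCGCCC in 1 of 14 and 10.8%, and TATAAA in 0 of 14 and 16.4%. The first and the third of these share 5 letters, and the window of rps-11 held both. In the larger sets CGTCTC and GAGAGA were more frequent at ribosomal protein genes, but of these words only CGTCTC, and only upstream, lay clear of the comparison share. CGTCTC occurred within 500 bp upstream of 28.2% of ribosomal protein genes (95% Wilson interval 19.4 to 39.0) and 15.7% of all protein-coding genes. GAGAGA occurred there at 38.5% (28.4 to 49.6) and at 5988 of the 19985, a share inside that interval. Around the strongest relaxed summits CGTCTC occurred in 17.1% of windows at ribosomal protein genes (10.1 to 27.6) and 12.0% at other genes. GAGAGA occurred in 25.7% (16.9 to 37.0) and 21.0%, so both intervals around summits held the share at other genes. The median GC content was 44.3% at the 14 and 41.3% at the other 623.

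A search of all 6-, 7- and 8-base words in the 14 windows, 5411 words in all counting each with its reverse complement once, was made after the sequences had been seen, and the words that follow are given as a description with no test. Ranked by the difference in share from the other 623 windows, TACGGT led the 6-base words, with 9 of 14 (64.3%) against 5.62%. Among 8-base words GAAAAAAA led, with 57.1% against 7.22%, and GGCCTAAA came next, with 5 of 14 (35.7%) against 0.161%, which is 1 window of 623. All 5 windows with GGCCTAAA also held TACGGT. They were those of rpl-3, rpl-15, rpl-43, rpl-22 and rpl-11.2. The windows of rpl-20, rps-20, rps-11 and the rps-10 and rpl-24.1 pair held TACGGT alone, and those of rps-28, rpl-35, rps-12, rps-26 and rpl-27 held neither.

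The relaxed peaks of the remaining ribosomal protein genes had no part in that ranking. GGCCTAAA occurred in 15 of these 56 windows (26.8%, 95% Wilson interval 17.0 to 39.6) and in 0.579% of the 7259 relaxed windows at other genes. The 7259 include windows at genes with an IDR summit. TACGGT occurred in 16 of 56 (28.6%) and in 5.69%. GAAAAAAA occurred in 14 of 56 and in 16.3%, so of the 3 words it differed least there.

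**Figure D4:**
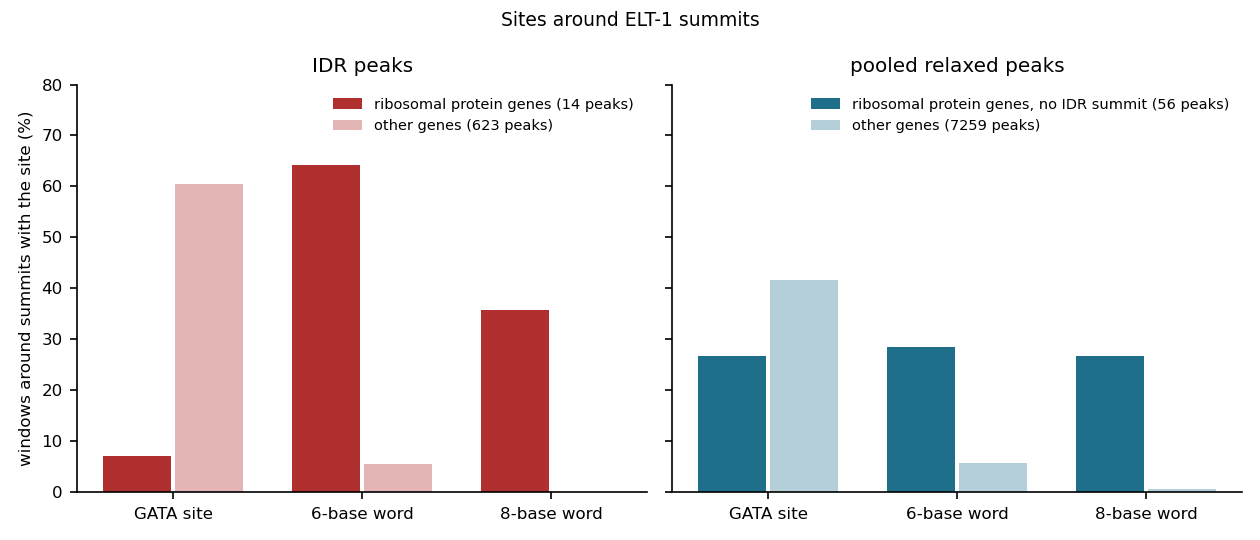
Share (y axis, %) of windows reaching 100 bp to each side of a summit with a GATA form, with the 6-base word and with the 8-base word described in the text. The left panel compares 14 IDR peaks at ribosomal protein genes with 623 at other genes. The right panel compares 56 relaxed peaks at ribosomal protein genes without an IDR summit with 7259 at other genes. Those 7259 include peaks at genes with an IDR summit. The GATA bars are lower at ribosomal protein genes in both panels (7.14% against 60.5%, and 26.8% against 41.7%), and the word bars are higher. The words were picked by the difference in share between the sets of the left panel, so their order there was fixed by that choice.

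In the 500 bp upstream of the outermost 5′ end, GGCCTAAA or its reverse complement TTTAGGCC occurred at 22 of 78 ribosomal protein genes (28.2%, 95% Wilson interval 19.4 to 39.0) and at 1.65% of all protein-coding genes. Of the other 707 protein-coding genes with an IDR summit, 1.41% had it. It occurred at 7 of the 15 genes with an IDR summit, at 15 of the 58 with only a relaxed summit and at 0 of the 5 with no pooled relaxed summit. The word was picked from the windows of the IDR peaks, so the 7 of 15 is not independent of that choice. The 22 of 78 includes those genes. For 0 of 5 the 95% Wilson interval reaches 43.4%, above the share of the whole set, so a lower share was not detectable there. The 25 copies lay at a median of 223 bp upstream, 17 as GGCCTAAA and 8 as TTTAGGCC on the strand of the gene. The median position of a copy was 52.5 bp downstream of the strongest pooled summit, towards the gene, and 20 of 25 lay on that side.

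The genes with the word had a median pooled relaxed signal of 21.4, over a range of 5.67 to 82.9, and those without it 17.5, over 5.0 to 48.7. The ranges overlapped over most of their length. The word was picked from the IDR peaks, which have the highest pooled signals at these genes, so the medians are not independent of that choice. An IDR summit was present at 7 of the 22 genes with the word and at 8 of the 56 without. These counts are not independent of that choice either. Relaxed summits of both replicates were found at 15 of 22 genes with the word and 41 of 56 without. TACGGT occurred upstream of 36 of 78 genes (46.2%) and of 13.9% of all protein-coding genes. By peak status these were 9 of the 15 genes with an IDR summit (60.0%), 24 of the 58 with only a relaxed summit (41.4%) and 3 of the 5 with no pooled relaxed summit (60.0%). For 3 of 5 the Wilson interval runs from 23.1 to 88.2 and holds both other shares. Whether TACGGT upstream followed the presence of a peak can therefore not be told from these genes. TACGGT was also picked from the windows of the IDR peaks, so the 9 of 15 is not independent of that choice.

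Other genes of protein synthesis and turnover, taken from lists by symbol, are given beside them with no test of the difference. None of 70 mitochondrial ribosomal protein genes had an IDR summit, and 44 had a pooled relaxed one (62.9%). A count of 0 of 70 allows a share of up to 4.29%, which is above the 3.61% of all protein-coding genes. Of 33 initiation factor genes 3 were called, eif-3.C with signal 48.0, ife-4 with 29.6 and iff-2 with 29.1, and 27 had a relaxed summit. None of 6 elongation factor genes was called, although all 6 had a relaxed summit with a median signal of 20.3. Among 32 aminoacyl-tRNA synthetase genes 1 was called, ears-2, and 24 had a relaxed summit. Among 33 proteasome genes rpn-7 and rpn-3 were called, and 26 had a relaxed summit. None of 13 ribosome biogenesis genes was called, and 12 had a relaxed summit. Each of these lists had a relaxed share above the 42.3% of all protein-coding genes. A relaxed share above that level was therefore not particular to ribosomal protein genes. GGCCTAAA was upstream of 2 of the 6 ribosomal protein genes that the symbol rule does not take, none of which had an IDR summit, of 2 of the 6 elongation factor genes and of 1 of 70 mitochondrial ribosomal protein genes.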

How the data were processed

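ChIP-seq peak lists on build ce11 were used as deposited, in narrowPeak format. Per the text lists of files, the authors made relaxed lists of peaks and background from each replicate (30000 and 26001 peaks) and from the pool (30000), against a shared control, and derived an IDR list of 1400 peaks. For the aligner, the peak caller and the threshold of IDR, the names and versions are not given in the sources used here. Read depth is unknown, so it gave no precision. The deposited signal of each peak was ranked only within its list, and values from different lists stand side by side without a common scale. Summits were read from the deposited offset. Because the IDR list ends where the pooled signal reaches a fixed value, calls near that value differ little from those just outside it.

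Genes and 5′ ends came from Ensembl release 115, product names and sequence from RefSeq, both on WBcel235. Each summit was set against 29796 annotated 5′ ends of protein-coding genes, and coordinates are 1-based. Motifs were searched on both strands within 100 bp of a summit. The window sequences of rpl-3 and rps-12 are not reported here. Neighbours are the nearest gene that does not overlap. The members, lists and motifs were chosen with earlier results of these data known, and no test between conditions was possible with 1 group.

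Named are the genes with an IDR summit, the 10 others with the highest pooled signal, those sharing a peak, snoRNA genes within 1000 bp of an IDR summit, members with no pooled summit, and rpa, rla, ubq-2, ubl-1 and rack-1. Others were named after their values were seen. Assignment was tested on simulated data, where 125 of 125 summits placed inside windows were recovered at their distance and 200 of 200 planted GATA sites were found. The work used SciPy 1.17.1, pandas 2.3.3 and numpy 2.4.6 under Python 3.11.15, and figures used matplotlib 3.10.9.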

Additional observations from a re-analysis of the deposited data

How the results depend on the processing

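Of 39 alternative values for 8 results, 36 kept within 1.5 times the count or within the spread or interval, 3 moved and 0 reversed. Giving each summit only to the gene with the nearest 5′ end within 2000 bp lowered the genes with an IDR summit from 15 to 9 of 78 (11.5%, against 4.51% of all protein-coding genes). The 50% of peaks with the highest signal left 8 genes (10.3%, against 1.75%). IDR peaks matched by relaxed peaks of both replicates fell from 14 to 7 when only the 1400 highest of each replicate counted. By that count 54.3% of the other 623 IDR promoter peaks were matched, so the loss was not particular to these genes. Leaving out replicate 1 or replicate 2, with the IDR list replaced by the 1400 highest relaxed peaks of the other, gave 19 and 12 genes, 18 and 12 peaks, median distances of 300 and 289 bp upstream, and GATA forms in 16.7% and 8.33% of windows (57.1% and 60.2% of the other promoter windows). Its effect on the median signal was not run, since the lists share no stated scale. With GATA forms sought within 150 bp, 21.4% of the windows held one, against 68.4% of the others. Sets of 76, 80 and 84 genes, added after the data were seen, gave 15 genes with an IDR summit each. No paired analysis was possible because there was 1 group.

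Counts rest on 14 peaks, so shares among them have wide intervals. Without peak lists from an untagged strain or from other factors, how much of the signal at these genes depends on ELT-1 was not tested. Mixed stages and whole embryos were pooled, and binding says nothing of expression.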

Other observations

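The called genes were spread over all chromosomes but V. There were 5 of 23 on chromosome I, 2 of 10 on II, 3 of 18 on III, 4 of 17 on IV, 0 of 8 on V and 1 of 2 on X. Shares of all protein-coding genes by chromosome were not computed, and 8 genes are too few to set V apart. All 8 genes on V had a pooled relaxed summit, with a median signal of 15.1, where the median over the 73 genes was 18.6. The duplicated genes of uL5 differed in level: rpl-11.2 had a pooled signal of 34.2 with summits in both replicates (signals of 16.8 and 16.0 in their own lists), and rpl-11.1 had 8.52 with no replicate 2 summit. Of the genes of uL23, rpl-25.2 had 12.3 and rpl-25.1 had 8.98, both without a replicate 2 summit. The neighbouring genes rpl-41.1 and rpl-41.2 had 10.6 and 10.5, with a summit in replicate 1 only for the first and in replicate 2 only for the second. These genes were chosen after their values were seen.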
